A study of Homo sapiens with 12 samples.

Results

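The cyclin-dependent kinase (CDK) inhibitor genes CDKN1A, CDKN1B, CDKN1C, CDKN2A, CDKN2B, CDKN2C, CDKN2D and CDKN3 were followed in HEK293 cells depleted of the elongation factor subunit SUPT4H1. The members were chosen by gene symbol, and all 8 were found among the 57704 endogenous genes of the count table and passed the filter on low counts. No measured value entered that rule, but the family was proposed with the fold changes of the same comparison in view. The adjusted p-values given for its members therefore place each gene within the fit over all genes and are not independent support. The treated cells received pooled siRNAs against SUPT4H1 at 100 nM and the control cells scrambled siRNAs at 100 nM, and both were lysed 72 hours after transfection. Both groups are the same HEK293 line (human embryonic kidney, ATCC CRL-1573), which stably carries a reporter of an endogenous intronic sequence with DARP-EGFP. There were 6 libraries per group, each from its own transfection of cells of 1 culture, and their spread therefore covers a single reporter line. Lysates of 1000000 cells received ERCC RNA standards, mix 2 with SUPT4H1 siRNA and mix 1 with scrambled siRNA.

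CDK inhibitors stop or slow the cell cycle by binding the kinases that drive it. Proteins of the CIP/KIP class (CDKN1A or p21, CDKN1B or p27, CDKN1C or p57) bind complexes of cyclins with CDKs, above all those of CDK2, whereas the INK4 class (CDKN2A or p16, CDKN2B or p15, CDKN2C or p18, CDKN2D or p19) binds CDK4 and CDK6 and keeps them from D cyclins. Both classes limit the phosphorylation of the retinoblastoma protein, and CDKN3 is a phosphatase that removes an activating phosphate from CDK2. HEK293 cells carry adenoviral E1A and E1B genes, the first of which makes proteins that bind the retinoblastoma protein.

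Endogenous counts summed to between 6591194 and 11366971 per library with SUPT4H1 siRNA and to between 7337033 and 20269171 with scrambled siRNA. SUPT4H1 itself averaged 20.8 ± 1.79 CPM in SUPT4H1 siRNA libraries and 184 ± 8.95 CPM in scrambled siRNA libraries (SD, n = 6 each), with no overlap. CPM are counts scaled to 1000000 endogenous counts with TMM factors, and each count is a tag from the 3′ end of a polyadenylated transcript, so levels were not divided by gene length. SUPT4H1 siRNA replicate 6 stood apart from its group on the second principal component (29.4, against −15.8 to −3.77 for the other 5). Fold changes without it are given for CDKN1A, CDKN1B, CDKN2D and CDKN3. Scrambled siRNA replicate 2 was the highest of its group on that component (18.8, against −6.96 to 7.63 for the other 5). Of 8 markers of the line, all tested, CKB (log2 0.54), SOX3 (0.59) and VIM (0.27) rose and NEFL (−0.61) fell. NEFL was the most abundant of them (935 and 1432 CPM on average with SUPT4H1 and scrambled siRNA), while NEFM and PAX2 averaged under 2 CPM in either group. The leukocyte marker PTPRC and the kidney tubule markers UMOD and SLC12A1 had no count in any library, and the summed level of 5 endothelial markers did not exceed 0.265 CPM. Of 4 epithelial markers tested 3 fell with SUPT4H1 siRNA (EPCAM, CDH1 and KRT18). The summed level of all 9 epithelial markers, among which KRT5, UMOD and SLC12A1 were at 0, was 105 to 183 CPM with SUPT4H1 siRNA and 203 to 251 CPM with scrambled siRNA. Of 3 fibroblast markers tested 2 rose, but their list summed to 9.76 to 14.7 CPM with SUPT4H1 siRNA and 9.13 to 14.9 CPM with scrambled siRNA, and the leukocyte list, whose 1 tested marker rose, to 1.91 to 4.58 CPM and 1.62 to 2.53 CPM. The part of these markers in the results below was not tested.

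Of the 8 inhibitor genes, CDKN1A and CDKN1C rose and CDKN1B and CDKN2D fell in relative abundance with SUPT4H1 siRNA (edgeR's quasi-likelihood test with Benjamini-Hochberg adjustment over 13820 genes, threshold 0.05). CDKN2A, CDKN2B, CDKN2C and CDKN3 did not pass. Thus 4 of 8 members (50.0%) were called, beside 40.1% of all genes tested, 20.3% higher and 19.8% lower. The median log2 fold change of the members was −0.04, against 0.00 over all genes. SUPT4H1 and scrambled libraries were fully apart for CDKN1A (above) and for CDKN1B and CDKN2D (below), 3 of 8 members beside 20.2% of all genes, 10.3% above and 9.91% below. Since the family was proposed with this comparison known, nothing is read from these shares. In bulk RNA, fewer cells with a transcript and less of it per cell cannot be told apart.

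**Figure D1:**
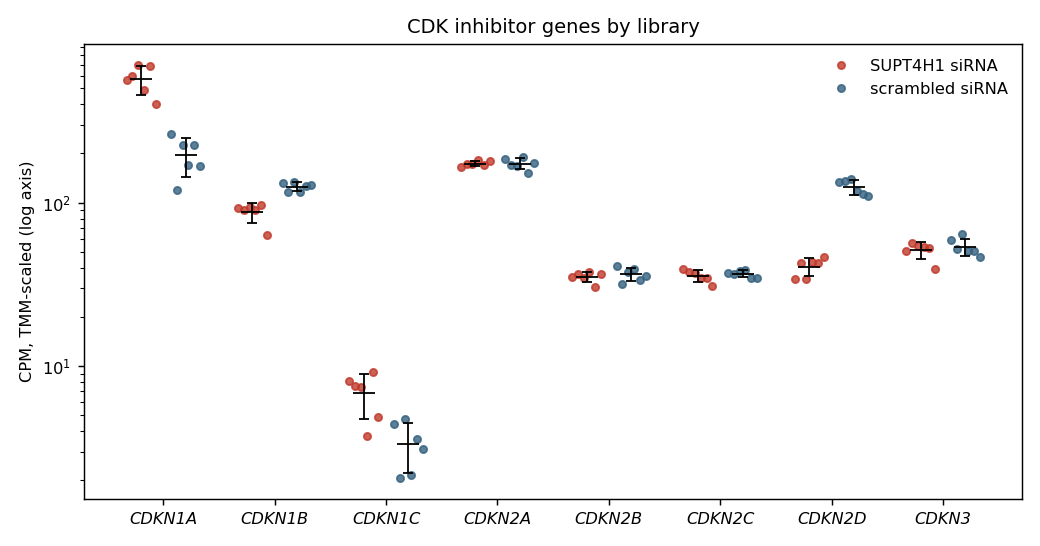
TMM-scaled CPM (log axis) of the 8 CDK inhibitor genes, SUPT4H1 siRNA left of scrambled siRNA for each gene; points are libraries, and black bars are the mean and SD of 6. CDKN1A lies between 404 and 699 CPM with SUPT4H1 siRNA, above all scrambled libraries, CDKN2D between 34.0 and 46.6 CPM, below all of them, and CDKN2A ranges overlap around 173 CPM.

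The members that moved most in each direction, CDKN1A and CDKN2D, and CDKN1B, which moved opposite to CDKN1A within the same class, are shown by their promoters, because the complex of SUPT4H1 and SUPT5H is known to act on polymerase soon after it leaves the start site. Each window runs from 250 bases before to 50 bases after the RefSeq start (GRCh38.p14). Capitals mark the GC box GGGCGG, the letters bound by SP1-type factors, on either strand. CDKN1A lies at chr6:36678464-36678763 (plus strand), CDKN1B at chr12:12717118-12717417 (plus strand) and CDKN2D at chr19:10568930-10569229 (minus strand, printed 5′ to 3′ along the gene).
CDKN1A: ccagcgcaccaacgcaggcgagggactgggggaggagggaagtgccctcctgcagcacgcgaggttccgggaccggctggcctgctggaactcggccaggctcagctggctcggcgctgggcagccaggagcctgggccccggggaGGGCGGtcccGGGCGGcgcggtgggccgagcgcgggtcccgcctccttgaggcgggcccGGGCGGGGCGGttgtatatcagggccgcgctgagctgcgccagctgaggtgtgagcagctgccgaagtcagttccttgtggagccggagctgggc
CDKN1B: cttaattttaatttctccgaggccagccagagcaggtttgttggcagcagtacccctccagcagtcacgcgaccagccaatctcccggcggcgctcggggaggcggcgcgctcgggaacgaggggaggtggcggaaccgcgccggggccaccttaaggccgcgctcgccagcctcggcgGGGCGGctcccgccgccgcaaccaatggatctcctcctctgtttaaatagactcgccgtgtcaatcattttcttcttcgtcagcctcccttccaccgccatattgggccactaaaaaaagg
CDKN2D: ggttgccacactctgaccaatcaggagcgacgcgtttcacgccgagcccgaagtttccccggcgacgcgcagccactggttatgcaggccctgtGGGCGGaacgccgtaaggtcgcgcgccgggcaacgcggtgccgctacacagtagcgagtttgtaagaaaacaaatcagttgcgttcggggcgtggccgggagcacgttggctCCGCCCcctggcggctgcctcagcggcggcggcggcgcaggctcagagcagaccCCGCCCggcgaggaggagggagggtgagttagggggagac
The CDKN1A window held 4 matches to the GC box, of which 2 overlap by 1 base, the CDKN2D window held 3 and the CDKN1B window 1. Members that did not pass the test in relative abundance held GC boxes too. CDKN2C had 0, 6 and 1 in its windows, CDKN2A 0 and 2, CDKN2B 2 and CDKN3 0. Over 35116 RefSeq promoter windows of this length, 45.0% held at least 1 such match and 15.8% held 3 or more, so the count seen in CDKN1A and CDKN2D is found in many promoters. The CCAAT box (CCAAT on either strand) matched 3 times in the CDKN1B window, 1 time in that of CDKN2D and not in that of CDKN1A, and 34.6% of all windows held it at least 1 time and 3.26% held 3 or more. It also matched 2 times in the CDKN3 window and 1 time in 1 CDKN2C window. TATAAA, the TATA box, was in none of these windows (11.5% of all). The cell cycle homology region TTTGAA, on either strand, was found in 1 member, CDKN3, and in 15.2% of all windows. Windows were matched for 7 members, 10 in total, all but CDKN1C. A match describes the letters and was not tested as a site.

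CDKN1A encodes p21, a CDK inhibitor known to be induced by DNA damage and other stress. In SUPT4H1 siRNA libraries its lowest, median and highest levels were 404, 582 and 699 CPM, against 120, 197 and 264 CPM in scrambled siRNA libraries. Every SUPT4H1 library lay above every scrambled library. The mean was 573 ± 114 CPM with SUPT4H1 siRNA and 195 ± 52.2 CPM with scrambled siRNA (SD, n = 6 each), a 2.93-fold rise (log2 1.55, SE 0.19, 95% interval 1.15 to 1.95, edgeR adjusted p = 2.3e-05). Of 13820 genes, 50 (0.362%) had a higher relative log2 fold change. SUPT4H1 siRNA replicate 6 was the lowest of its group, and without it the log2 fold change was 1.61. Scrambled siRNA replicate 2 was the lowest of the scrambled group, and without it the value was 1.42 (adjusted p = 2.12e-06), the smallest among the alternatives run. CDKN1A (ENSG00000124762) spans positions 36676460 to 36687339 of chromosome 6 on the plus strand (GRCh38, GENCODE 29), and the noncoding gene DINOL, on the opposite strand at its start, was not analysed here.

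CDKN1B, which encodes p27, a protein whose amount is known to be set largely by degradation, fell moderately. Its levels were 63.2, 91.5 and 96.1 CPM (lowest, median, highest) with SUPT4H1 siRNA, against 115, 127 and 134 CPM with scrambled siRNA. All 6 treated libraries lay below all 6 control libraries. The log2 fold change was −0.51 (SE 0.09, 95% interval −0.70 to −0.33, edgeR adjusted p = 0.000116), which leaves 70.1% of the scrambled level. Replicate 6 of the SUPT4H1 group was the low library, at 63.2 CPM where the other 5 held 90.6 to 96.1 CPM, and without it the value was −0.46 (adjusted p = 3.2e-06). The gene (ENSG00000111276, chromosome 12 from 12715058 to 12722371, plus strand) contains the sense intronic gene AC008115.3, which averaged 2.03 CPM in either group.

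CDKN1C, which encodes p57 and is expressed from the maternal chromosome only in most tissues, was the least abundant member. It had 3.74, 7.50 and 9.21 CPM (lowest, median, highest) with SUPT4H1 siRNA and 2.06, 3.34 and 4.77 CPM with scrambled siRNA. The groups overlapped, since SUPT4H1 siRNA replicate 4, at 3.74 CPM, lay within the scrambled range. The log2 fold change was 1.02 (SE 0.23, 95% interval 0.54 to 1.5, edgeR adjusted p = 0.00145), or 2.03-fold. These levels rest on 16 to 92 counts per library, the thinnest of the family, against 214 to 6910 for the other 7 members. CDKN1C (ENSG00000129757, chromosome 11 from 2883213 to 2885773, minus strand) deviated with CDKN1A within groups (Pearson r = 0.82 over the deviations of 12 libraries from their group means, a description that shares libraries and depth).

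Among the INK4 genes, CDKN2D stood apart. CDKN2D encodes p19, an INK4 protein that is periodically expressed in cycling cells. Its levels were 34.0, 42.8 and 46.6 CPM (lowest, median, highest) with SUPT4H1 siRNA, against 109, 126 and 139 CPM with scrambled siRNA. The highest treated library was thus far below the lowest control library. Means were 40.6 ± 5.26 and 125 ± 12.9 CPM with SUPT4H1 and scrambled siRNA (SD, n = 6 each), a 3.08-fold fall (log2 −1.62, SE 0.09, 95% interval −1.82 to −1.43, edgeR adjusted p = 9.09e-11). Only 66 of 13820 genes (0.478%) had a lower relative log2 fold change, and without SUPT4H1 siRNA replicate 6 it was −1.69. No other annotated gene overlaps CDKN2D (ENSG00000129355, chromosome 19 from 10566462 to 10569059, minus strand).

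The other 3 INK4 genes did not pass the test in relative abundance. CDKN2A, which yields p16 and, from another first exon and reading frame, the MDM2-binding protein ARF, had 165, 172 and 182 CPM (lowest, median, highest) with SUPT4H1 siRNA and 152, 173 and 189 CPM with scrambled siRNA. The ranges coincide, and the 95% interval of its log2 fold change, −0.14 to 0.14 around 0.00, bounds the difference on this scale. Because p16 and ARF transcripts share their last exons, 3′ tags do not separate them. CDKN2B, encoding p15, had 30.7, 35.8 and 37.8 CPM with SUPT4H1 siRNA and 31.8, 36.6 and 41.0 CPM with scrambled siRNA (log2 −0.05, 95% interval −0.23 to 0.13, edgeR adjusted p = 0.685). CDKN2C, encoding p18, had 30.9, 35.9 and 39.5 CPM with SUPT4H1 siRNA and 34.5, 37.0 and 38.9 CPM with scrambled siRNA (log2 −0.04, 95% interval −0.21 to 0.13, adjusted p = 0.754). The groups overlapped for both genes, and CDKN2C (ENSG00000123080) lies on chromosome 1 from 50960745 to 50974633 (plus strand).

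CDKN2A (ENSG00000147889, chromosome 9 from 21967753 to 21995301) and CDKN2B (ENSG00000147883, chromosome 9 from 22002903 to 22009363) are neighbours on the minus strand, and both overlap the antisense gene CDKN2B-AS1, known as ANRIL. CDKN2B-AS1, described for that overlap and not by the naming rule, averaged 2.68 ± 0.972 CPM with SUPT4H1 siRNA and 4.03 ± 0.512 CPM with scrambled siRNA (SD, n = 6 each). It fell by 0.62 on the log2 scale (SE 0.21, adjusted p = 0.0224 with edgeR), and its groups overlapped. AL359922.1, annotated on the opposite strand across both inhibitors, was not among the genes tested. Since the strand setting of the counting is not given, reads of a gene and its antisense partner cannot be told apart. CDKN2A and CDKN2B deviated together within groups (Pearson r = 0.61 over 12 libraries, as a description). Some members on different chromosomes had higher values, among them CDKN1B with CDKN3 (0.77), CDKN1A with CDKN1B (0.70) and CDKN2C with CDKN3 (0.69). Nothing about the shared locus is read from the 0.61. MTAP, their neighbour on the other side, did not pass the test (log2 0.19, adjusted p = 0.202).

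CDKN3, the phosphatase (ENSG00000100526, chromosome 14 from 54396849 to 54420218, plus strand), had 39.2, 53.3 and 57.0 CPM (lowest, median, highest) with SUPT4H1 siRNA and 46.3, 51.3 and 63.9 CPM with scrambled siRNA. The groups overlapped in all but SUPT4H1 siRNA replicate 6, which was lowest. The log2 fold change was −0.07 (SE 0.10, 95% interval −0.27 to 0.14, edgeR adjusted p = 0.622), and −0.03 without replicate 6. CDKN3 is known to peak late in the cell cycle, with the mitotic genes CDK1, CCNB1 and CCNB2, which in the same libraries fell by 0.89, 0.41 and 0.57 on the log2 scale. Of the mitotic genes CDC20 and UBE2C, CDC20 fell by 0.27 and UBE2C (−0.14) did not pass the test.

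With these changes the makeup of the inhibitor mRNA shifted toward CDKN1A. CDKN1A made up 56.6% ± 4.64 of the summed level of the 8 genes with SUPT4H1 siRNA and 25.7% ± 4.92 with scrambled siRNA (SD, n = 6 each), without overlap. The sum was 1003 ± 124 CPM with SUPT4H1 siRNA and 749 ± 71.4 CPM with scrambled siRNA, and its ranges, 805 to 1133 CPM and 664 to 856 CPM, overlapped. Only SUPT4H1 siRNA replicate 6, at 805 CPM, reached into the scrambled range. The next lowest treated library, replicate 4, had 931 CPM. Without CDKN1A the sum of the other 7 genes was 431 ± 16.2 CPM with SUPT4H1 siRNA and 554 ± 30.5 CPM with scrambled siRNA, lower in all 6 treated libraries than in any control library. The 4 INK4 genes held 28.9% ± 4.6 of the sum with SUPT4H1 siRNA and 49.8% ± 4.37 with scrambled siRNA. CDKN2D held 4.14% of the sum with SUPT4H1 siRNA, where its level was near those of CDKN2C and CDKN2B, and 16.7% with scrambled siRNA, where it was near that of CDKN1B.

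**Figure D2:**
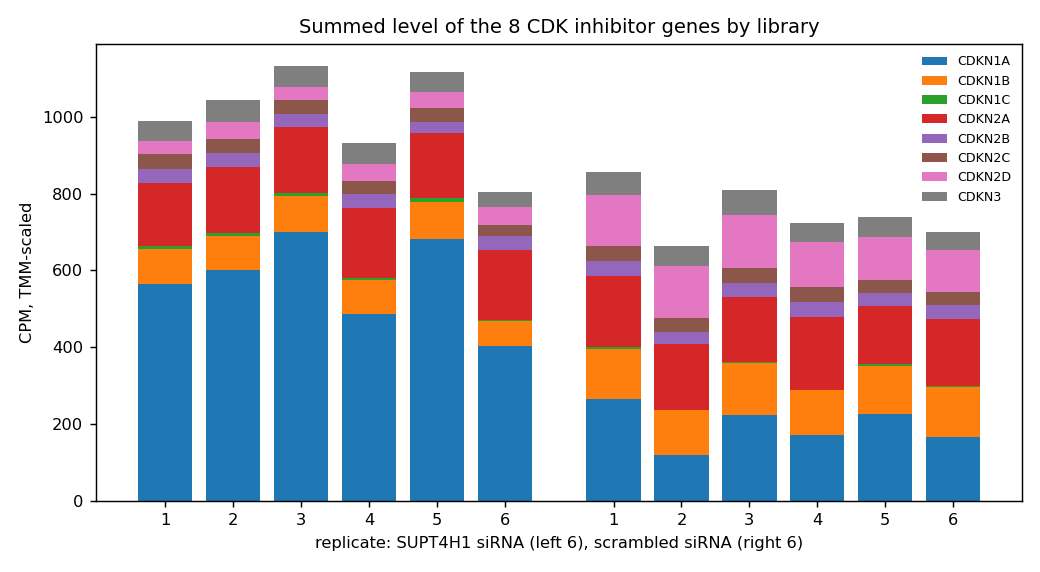
Stacked TMM-scaled CPM of the 8 CDK inhibitor genes in each library, the 6 SUPT4H1 siRNA libraries left and the 6 scrambled siRNA libraries right. The CDKN1A block at the base is larger in every treated library, while the sum of the other 7 genes is 401 to 446 CPM with SUPT4H1 siRNA, below the 513 to 593 CPM with scrambled siRNA.

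In SUPT4H1 siRNA libraries the order was CDKN1A, CDKN2A (173 CPM), CDKN1B (87.8 CPM), CDKN3 (51.3 CPM), CDKN2D, CDKN2C (35.7 CPM), CDKN2B (35.2 CPM) and CDKN1C (6.82 CPM). The first 3 were apart from each other and from the rest in all 6 libraries, whereas CDKN3, CDKN2D and CDKN2C each overlapped with the next in that order, and CDKN2B lay above CDKN1C in all 6. In scrambled siRNA libraries the order was CDKN1A, CDKN2A (173 CPM), CDKN1B (125 CPM), CDKN2D, CDKN3 (53.7 CPM), CDKN2C (36.7 CPM), CDKN2B (36.4 CPM) and CDKN1C (3.35 CPM). There CDKN1A exceeded CDKN2A in only 3 of 6 libraries, CDKN1B exceeded CDKN2D in 2 of 6 and CDKN2C exceeded CDKN2B in 3 of 6, so the members of these pairs did not differ beyond their spread.

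Scaled to the ERCC standards, which count transcripts against a fixed addition per lysate, CDKN1A still rose and CDKN2D fell further. The log2 ratio of endogenous counts to those of ERCC subgroup B was 8.23 ± 0.57 with SUPT4H1 siRNA and 9.16 ± 0.32 with scrambled siRNA (SD, n = 6 each; exact two-sided permutation test, p = 0.013), and the median gene shifted by −0.82 on this scale. Mix and group coincide, so an error in dilution and a change in total mRNA cannot be told apart. On this scale 1 member rose and 6 fell (edgeR adjusted p under 0.05), beside 0.304% of all genes that rose and 59.0% that fell, 59.3% in either direction. CDKN1A had 116, 138 and 422 counts per 1000 subgroup B counts (lowest, median, highest) with SUPT4H1 siRNA and 68.9, 108 and 149 with scrambled siRNA. The groups overlapped, and SUPT4H1 siRNA replicate 5 was far above the other treated libraries. Scaled in this way CDKN1A had a log2 fold change of 0.79 (SE 0.31, 95% interval 0.18 to 1.40, adjusted p = 0.0245), or 1.73-fold. It was 0.39 without SUPT4H1 siRNA replicate 5 (adjusted p = 0.0887), 0.68 without scrambled siRNA replicate 2 (0.0829) and 0.72 without scrambled siRNA replicate 6 (0.0621), so that call rests on each of these libraries.

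CDKN2D had 6.48, 12.9 and 26.6 counts per 1000 subgroup B counts (lowest, median, highest) with SUPT4H1 siRNA, against 55.6, 67.6 and 102 with scrambled siRNA. It was the member whose groups stayed apart on the spike-in scale, where 8.60% of all genes did. Its log2 fold change was −2.40 (SE 0.33, 95% interval −3.05 to −1.75, edgeR adjusted p = 2.67e-10), which leaves 18.9% of the scrambled level. CDKN1B had a log2 fold change of −1.31 (SE 0.32, adjusted p = 0.000508), or 40.4% of the scrambled level. CDKN1C, at 0.32 (SE 0.35, adjusted p = 0.407), did not pass. CDKN2A (−0.84), CDKN2B (−0.91), CDKN2C (−0.88) and CDKN3 (−0.87) fell with adjusted p from 0.013 to 0.0181, close to the −0.82 of the median gene, and 1 library could end each of these calls. Without scrambled siRNA replicate 4 the values were −0.65 for CDKN2A (adjusted p = 0.0767), −0.73 for CDKN2B (0.0542) and −0.71 for CDKN2C (0.0609). Without SUPT4H1 siRNA replicate 1 they were −0.76 for CDKN2A (0.0564) and −0.79 for CDKN3 (0.050), and without SUPT4H1 siRNA replicate 6 that of CDKN3 was −0.77 (0.0528).

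**Figure D3:**
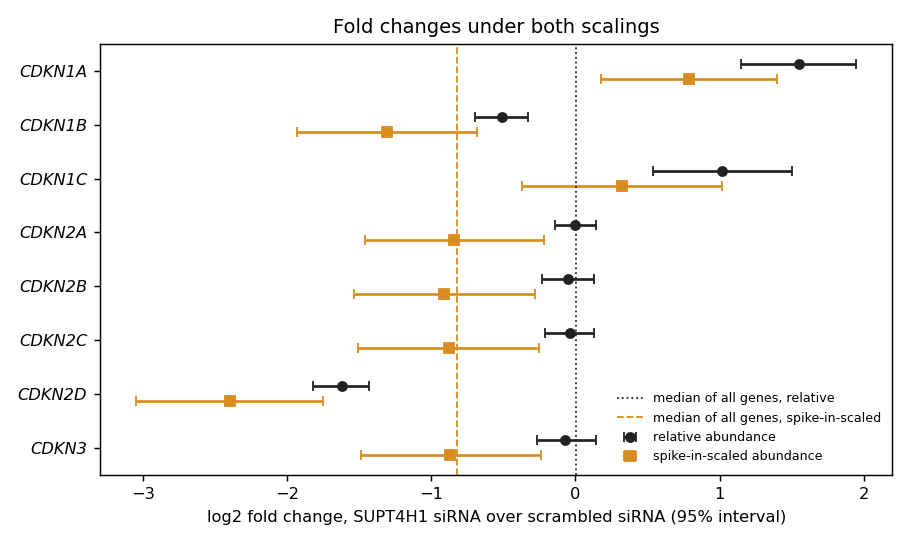
Log2 fold change of each member, SUPT4H1 siRNA over scrambled siRNA, with 95% intervals, in relative (circles) and spike-in-scaled abundance (squares); vertical lines mark the median of all 13820 genes on each scale. CDKN2A, CDKN2B, CDKN2C and CDKN3 sit on the medians, CDKN1A and CDKN1C to the right of them and CDKN1B and CDKN2D to the left.

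The kinases that the inhibitors bind moved in both directions. Of 12 tested CDK and cyclin genes 5 rose and 6 fell in relative abundance (edgeR adjusted p under 0.05), with a median of −0.13 beside 0.00 over all genes. By the same test 20.3% of all genes rose and 19.8% fell. CDK6 and CDK4, the targets of INK4 proteins, rose by 1.23 and 0.52 on the log2 scale, and CDK2, the main target of CIP/KIP proteins, by 0.73. CDK6 averaged 74.6 ± 14.2 CPM with SUPT4H1 siRNA and 31.7 ± 3.98 CPM with scrambled siRNA (SD, n = 6 each). The mitotic kinase gene CDK1 fell by 0.89 and the S and G2 phase cyclin gene CCNA2 by 0.76. Other cyclin genes moved both ways besides CCNB1 and CCNB2, given above. CCND1 (1.39) and CCNE1 (0.42) rose, CCNE2 (−0.63) and CCND2 (−0.22) fell, and CCND3 (−0.04) did not pass the test. On the spike-in scale CDK6 (0.43), CDK4 (−0.33) and CDK2 (−0.07) did not pass the test (edgeR adjusted p from 0.214 to 0.84). CDK1 (−1.69, adjusted p = 8.86e-06) and CCNA2 (−1.58, adjusted p = 3.69e-05) fell on it, and CCND1 (0.56, adjusted p = 0.105) did not pass. Of 18 genes for retinoblastoma family, E2F and DREAM proteins, which act below the CDKs, 4 rose and 6 fell (median −0.05). RB1, the retinoblastoma gene, rose by 0.70, and the E2F transcription factor genes E2F1 (−0.75), E2F2 (−0.67) and E2F8 (−0.98) fell, whereas E2F7 (1.52) and E2F4 (0.25) rose and E2F3, E2F5 and E2F6 did not pass the test.

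Among 15 tested activators of inhibitor transcription 5 rose and 3 fell (edgeR adjusted p under 0.05), with a median of 0.07 beside 0.00 over all genes. In relative abundance 20.3% of all genes rose and 19.8% fell. EGR1 (0.93), an immediate early transcription factor gene, SP1 (0.47), whose product binds GC boxes, and CEBPA (0.31) rose, and CEBPB (−0.59) fell. With spike-in scaling 0 of the 15 rose and 8 fell (median −0.75), beside 0.304% and 59.0% of all genes and their median of −0.82.

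**Figure D4:**
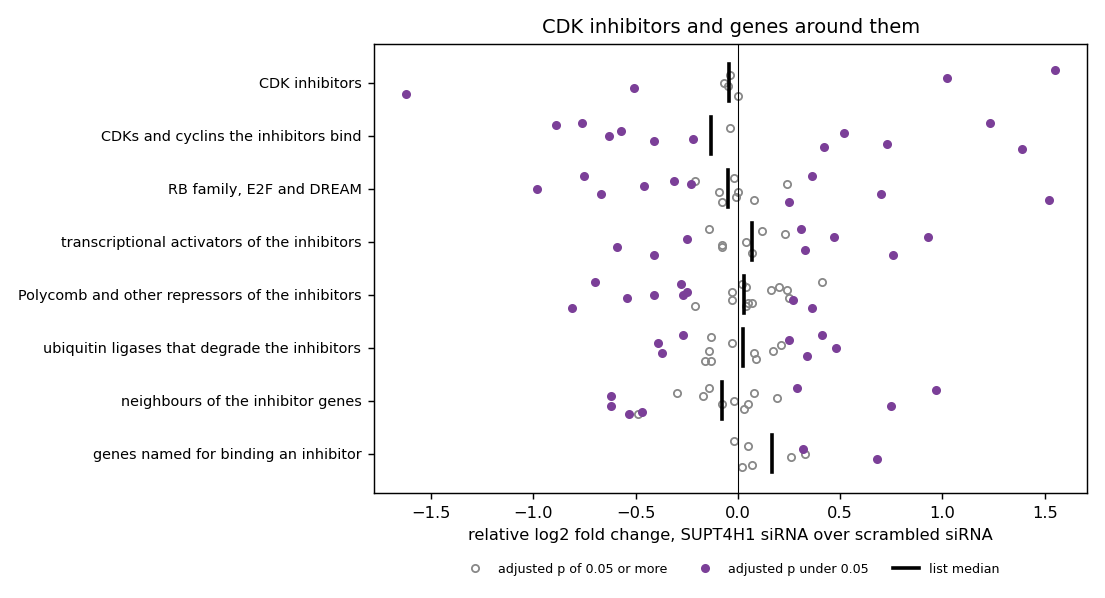
Relative log2 fold change (SUPT4H1 siRNA over scrambled siRNA) of each tested gene in the CDK inhibitor family and 7 lists of related genes; filled points passed the test, and black bars are list medians. The inhibitors spread from −1.62 to 1.55 around a median of −0.04, and the medians of the 7 lists lie between −0.13 and 0.17.

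Of 22 Polycomb and other repressors of inhibitor genes 2 rose and 7 fell (median 0.03), beside 20.3% higher and 19.8% lower over all genes. BMI1 (−0.70), CBX7 (−0.81) and SUZ12 (−0.27), Polycomb components of which the first 2 are known to silence the CDKN2A locus, fell. PHC2 (0.36) rose. Of 16 genes for ubiquitin ligase subunits and other proteins linked to protein degradation 4 rose and 3 fell (median 0.03). SKP2, which marks p27 for degradation, averaged 75.6 ± 6.25 CPM with SUPT4H1 siRNA and 98.8 ± 6.64 CPM with scrambled siRNA (SD, n = 6 each, log2 −0.39, edgeR adjusted p = 0.000371), and FBXW7 (0.48) and PSME3 (0.34) rose. SKP1 fell by 0.37. Of 17 tested neighbours of the inhibitor genes 3 rose and 4 fell (median −0.08), among them CNIH1 (−0.53) and CGRRF1 (−0.62), near CDKN3, PHLDA2 (0.75), in the imprinted cluster of CDKN1C, and FAF1 (−0.47), next to CDKN2C. Of 8 tested genes listed for binding an inhibitor or a CDK 2 rose, CABLES2 (0.68) and CDK2AP2 (0.32), and 0 fell. The 8 include MYCBP2, which is named for MYC and did not pass the test.

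The genes whose library-to-library deviations were most like those of a member within the groups did not always share its change. For CDKN1A these were NUPR1, TRIB3 and PTP4A1 (Pearson r = 0.95 each over 12 libraries, among 10664 genes with at least 5 CPM). NUPR1, a stress-induced chromatin protein, had a log2 fold change of 0.52 and the tyrosine phosphatase gene PTP4A1 of 0.94, whereas TRIB3, a stress-induced pseudokinase, fell by 1.62. For CDKN1B the nearest were FOPNL, KIAA0101 and EFTUD2 (0.96 each), with log2 fold changes of −0.44, −0.68 and −0.04. For CDKN2D they were TAB2 (0.93), EFCAB14 (0.92) and the splicing factor gene SFPQ (0.92), which rose by 0.53, 0.61 and 0.36, opposite to CDKN2D. CDKN2A and CDKN2B had the mitochondrial ribosomal protein gene MRPL36 in common among their nearest genes (0.88 and 0.80), and MRPL36 rose by 1.21. For CDKN2C the nearest were NSL1 (0.92), POLI (0.92) and TMEM216 (0.91), for CDKN3 WDR11 (0.96), ETFA (0.96) and COMMD6 (0.94), and for CDKN1C INSR, SHC2 and NTNG2 (0.94 each). With 12 libraries and so many genes, the highest coefficients are high by selection, and they carry no test.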

How the data were processed

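The authors deposited 1 table of raw counts per gene for 12 QuantSeq 3′ libraries, per the labels' protocols, which give 200 ng as the RNA input. FastQC 0.11.5, STAR, MultiQC and R 3.4.3 with build GRCh38.p10 are named in the submitters' processing notes, while for the counting tool, annotation and strand nothing was found (not given in the sources used here). Counts of 57704 genes were tested with edgeR 4.0.16 (quasi-likelihood, robust, R 4.3.3) over all 12 libraries without covariates, after TMM scaling and filterByExpr, which left 13820 genes. SE is the log2 fold change over the root of its F value. The 92 ERCC standards and the GFP row (0.584% to 2.46% of counts) stayed out of library sizes. For spike-in scaling, library sizes were the sums of 23 subgroup B standards, assigned from general knowledge of the product. Only 7 of the 23 had at least 20 counts in every library. The labels of subgroups C and D were first swapped and were corrected after the counts were seen. Positions are from GENCODE 29 (GRCh38), promoters from RefSeq (GRCh38.p14).

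Members and lists were chosen with earlier results of these data known. Apart from the members, at most 4 called genes per list were named by adjusted p, with SUPT4H1, SKP2, CDK2, CDK4, CDK6, RB1 and MTAP whatever their values, and the 3 genes most like each member. Some genes and a list first chosen are not reported here. CCNB1, CCNB2, CDC20, UBE2C, MYCBP2, E2F3, E2F4, E2F5, E2F6, E2F7 and CDKN2B-AS1 fall outside this rule and were named after their values were seen. So were CCND1, CCND2, CCND3, CCNE1 and CCNE2. Markers were named by level or call. The replicate numbers did not pair the libraries. All 30 pairs of libraries within groups differed beyond sampling noise, with a ratio of chi-square to its degrees of freedom of at least 4.42. The scripts were tested on simulated data for relative abundance, not for spike-in scaling. Of planted 1.5-fold changes 46.3% were called, of 2-fold changes 85.1% and of 4-fold changes 100%, with 11 false calls among 13820 genes. A gene that did not pass can thus hold a change of about 1.5-fold. Alternatives were other scalings and filters, DESeq2 1.42.0, limma-voom 3.58.1, RNA integrity as a covariate, a replicate block and leaving out each library.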

Additional observations from a re-analysis of the deposited data

Results flagged for a closer look

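A library far from the other 5 of its group was found in 8 of 32 sets of 6 values (Dixon's ratio over 0.625), where chance gives about 1.6. The sets share libraries and are not independent, and no cause was tested.

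In CPM, SUPT4H1 siRNA replicate 6 was low for CDKN1B (63.2, others 90.6 to 96.1) and for CDKN3 (39.2, others 50.8 to 57.0). In counts per 1000 ERCC subgroup B counts, SUPT4H1 siRNA replicate 5 was high for CDKN1A (422, others 116 to 202), CDKN1B (59.5, others 18.0 to 30.5), CDKN1C (5.71, others 1.07 to 2.54) and CDKN2A (105, others 33.0 to 57.7). That library had 9.27 as its log2 ratio of endogenous to subgroup B counts, within the scrambled range of 8.78 to 9.74. On the same scale replicate 4 of the scrambled group, at a log2 ratio of 9.74, was high for CDKN2A (164, others 71.4 to 104) and CDKN2C (33.7, others 16.4 to 21.1).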

How the results depend on the processing

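In relative abundance the same 4 members were called, and each of the 8 stayed on its side of the threshold, under all 20 alternatives run. The log2 fold change ranged from 1.42 to 1.66 for CDKN1A, −0.56 to −0.46 for CDKN1B, 0.88 to 1.15 for CDKN1C and −1.69 to −1.58 for CDKN2D. In spike-in-scaled abundance 7 members were called, 3 with subgroup C, and between 4 and 7 when each library was left out. The number of all genes that fell moved as well, from 5618 without scrambled siRNA replicate 4 to 12189 without SUPT4H1 siRNA replicate 5. The first of these settings was the one with 4 members called. With subgroup C the log2 fold changes of CDKN2A (−0.52), CDKN2B (−0.60), CDKN2C (−0.57) and CDKN3 (−0.56) no longer passed, and 2232 genes fell and 68 rose, against 8159 and 42. Without scrambled siRNA replicate 6, 26 genes rose. The cause was not tested. CDKN1A stayed above 0 on this scale (0.39 to 1.11), and CDKN1C, not called under any alternative, ran from −0.12 to 0.62. The log2 difference in endogenous counts per subgroup B count was −0.93, or −0.64 with subgroup C (exact permutation p = 0.052), and −1.13 to −0.81 when each library was left out; these alternatives were chosen after seeing the data. Same-numbered libraries did not deviate together (correlations from −0.42 to 0.13, with 1 of 6 libraries most like its own number). With the replicate number as a block, 4 members were called in relative and 7 in spike-in-scaled abundance, the same numbers as without it. Across the related lists 25 genes rose and 29 fell, and 21 to 27 and 24 to 32 under the alternatives. Of all 13820 genes 2806 (20.3%) rose and 2734 (19.8%) fell. Under the same alternatives these numbers were 2437 to 3001 and 2371 to 3146. The lists were chosen with earlier results known, so nothing is read from their counts. Low counts limit CDKN1C.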
